A study of Callithrix jacchus with 4 samples.

Results

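Cytosolic ribosomal proteins are the structural proteins of the ribosomes that translate nuclear mRNAs. The genes described here were those rows of the count table whose symbol is RPL or RPS followed by a digit, RPLP0 to RPLP2, or RPSA, without the RPS6K kinases and RPS4Y genes. The rule found 83 of the 35205 rows. One of these, RPS19BP1, encodes a protein that binds RPS19 and is not a ribosomal protein, so the counts below are over the other 82 genes. They comprise 45 genes of the large subunit, 29 of the small subunit and 8 paralogs, which are second copies whose names end in L or L1. The 74 subunit genes without the paralogs are called core genes here.

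The data were RNA-seq libraries of the brain of newborn common marmosets (Callithrix jacchus), taken at postnatal day 5. The wild-type group had 2 libraries and the FMR1 mutant group, generated with CRISPR/Cas9, also had 2. The FMR1 allele of each mutant, sex and litter are not given in the labels. The series design describes the samples as forebrain with cortex, striatum and hippocampus. The labels do not state that the libraries of a group came from separate animals, so p-values reflect only how these samples vary, which may be technical.

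The large subunit joins amino acids into protein, and the small subunit reads the mRNA. Most mRNAs of ribosomal proteins begin with a short run of pyrimidines, the terminal oligopyrimidine (TOP) tract, through which the growth kinase mTOR and the protein LARP1 control their translation and stability. FMRP, the product of FMR1, binds mRNAs and translating ribosomes in neurons. The comparison addressed how the mRNAs of this machinery differ between mutant and wild-type newborn brain.

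Total counts were 12331639 to 13455702 per library. The cortical neuron marker TBR1 was counted 1870 to 2388 times per library, and the hindbrain markers HOXA2, HOXB2 and EN1 were at 0 in all 4. Wild-type replicate 1 stood apart in the thalamic marker TCF7L2 (1272 counts, against 118 to 139 in the other 3 libraries), and mutant replicate 1 in the choroid plexus marker TTR (1244 counts, against 8 to 89).

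Ribosomal protein mRNAs made up a larger share of the counts in each mutant library than in either wild-type library. The 82 genes took 1.86% (replicate 1) and 1.68% (replicate 2) of all counts in the wild-type group, and 2.49% (replicate 1) and 2.05% (replicate 2) in the mutant group. The groups did not overlap, and mutant replicate 1 was the highest of the 4 libraries. The difference between the group means was 0.497 percentage points, and 0.272 without mutant replicate 1. In bulk tissue, a change in the number of cells of a type and a change in RNA per cell cannot be told apart.

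Of the 80 genes that passed the low-count filter, 10 rose and 1 fell in the mutant libraries, and 69 did not pass the test (edgeR's quasi-likelihood test, Benjamini-Hochberg adjusted p under 0.05 over all 16956 genes tested). Among all genes tested, 0.661% rose and 1.57% fell, 2.23% in either direction. The log2 fold change (mutant over wild-type) was positive for 77 of the 80 genes, as it was for 49.3% of all genes tested. The median was 0.32, beside a median over all genes of -0.0040. Among the 2413 genes with a mean of at least 100 CPM, counts scaled to a common library size,, 52.5% were positive, 1.57% rose and the median was 0.01. The 80 genes share 4 libraries and are not replicates of one another, so these counts describe the genes and are not a test of the set.

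**Figure D1:**
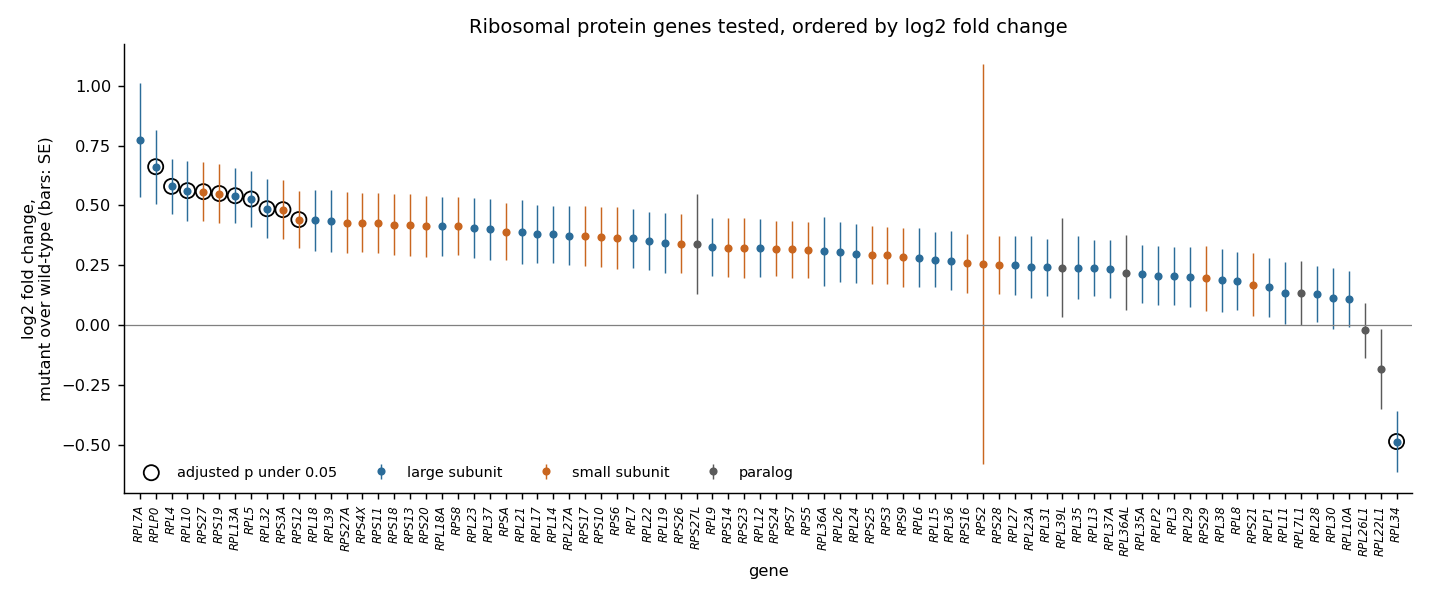
Log2 fold change of the 80 ribosomal protein genes tested, with SE as bars, ordered by size and coloured as large subunit, small subunit or paralog. Open circles mark the 11 genes past an adjusted p of 0.05, 10 above 0 and RPL34 below it.

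The 10 genes that rose were RPLP0, RPL4, RPL10, RPL13A, RPL5 and RPL32 of the large subunit and RPS27, RPS19, RPS3A and RPS12 of the small subunit, with fold changes between 1.36 and 1.58. Levels below are CPM scaled by TMM, listed for wild-type replicates 1 and 2 and then for mutant replicates 1 and 2. CPM is not corrected for transcript length, so levels are compared between libraries and not between genes.

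Among genes of the large subunit, RPLP0 anchors the P stalk, the flexible arm that recruits elongation factors. RPLP0 stood at 728 and 516 CPM in wild-type and at 1080.2 and 888 CPM in mutant libraries (log2 fold change 0.66, SE 0.15, adjusted p = 0.0440). RPL4 reaches into the tunnel through which the new protein leaves the ribosome. Its level was 578 and 501 CPM in wild-type and 852 and 759.9 CPM in mutant libraries (0.58, SE 0.11, adjusted p = 0.00258), the smallest adjusted p of the 80 genes. For both genes the lower mutant library lay above the higher wild-type library.

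RPL10 completes the late assembly of the large subunit, and variants of the human gene have been linked to intellectual disability. It was at 348 and 290.3 CPM in wild-type and 528 and 414 CPM in mutant libraries (0.56, SE 0.13, adjusted p = 0.0115). RPL13A measured 717 and 664 CPM in wild-type and 1105 and 904 CPM in mutant libraries (0.54, SE 0.12, adjusted p = 0.00576). RPL5, which binds a small ribosomal RNA together with RPL11, was at 242 and 217 against 346 and 314 CPM (0.53, SE 0.12, adjusted p = 0.00756). RPL32 was nearly equal in the wild-type libraries, at 184 and 183 CPM, and further apart in the mutant libraries, at 290.4 and 224 CPM (0.49, SE 0.12, adjusted p = 0.0251). Mutant replicate 1 was the highest library for each of these genes.

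Among genes of the small subunit, RPS27 carries a zinc finger and stood at 203 and 167 CPM in wild-type and 296 and 249 CPM in mutant libraries (0.56, SE 0.12, adjusted p = 0.00812). RPS19, the gene most often mutated in Diamond-Blackfan anaemia, an inherited failure of red cell production, was at 276 and 232 against 413 and 331 CPM (0.55, SE 0.12, adjusted p = 0.0105). RPS3A lay at 185 CPM in both wild-type libraries and at 289.6 and 228 CPM in the mutant libraries (0.48, SE 0.12, adjusted p = 0.0238). The wild-type values of RPS3A, like those of RPL32, were much closer together than the mutant values. RPS12 was at 167 and 146 against 229.6 and 196 CPM (0.44, SE 0.12, adjusted p = 0.0421). For all 10 risen genes mutant replicate 1 was the highest library, and for 9 of them wild-type replicate 2 was the lowest.

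**Figure D2:**
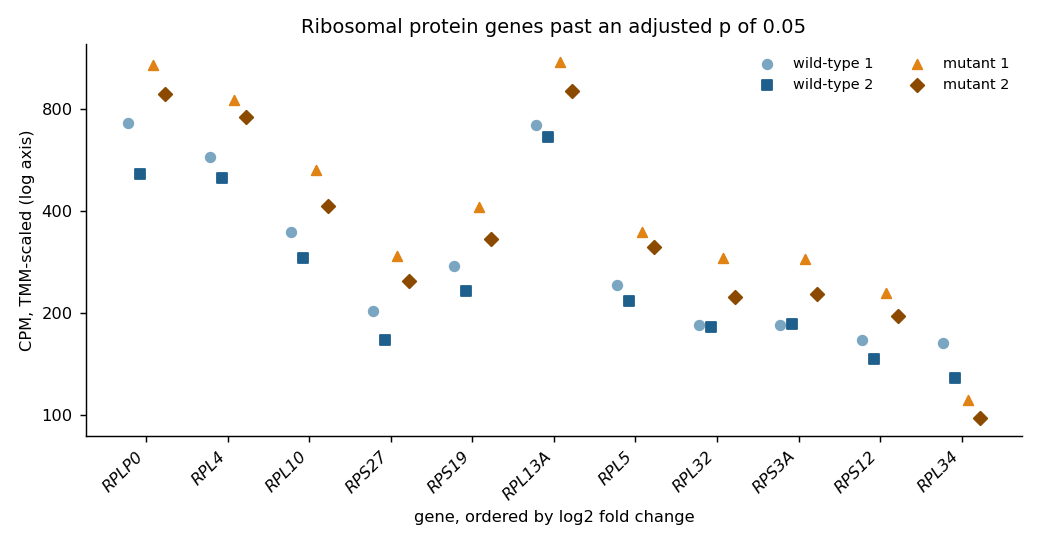
CPM (TMM-scaled, log axis) of the 11 ribosomal protein genes past the threshold, with 1 point per library. For 10 genes both mutant libraries lie above both wild-type libraries, and for RPL34 both lie below.

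RPL34, a large-subunit protein, was the only core gene with a negative value and the only one of the 80 genes that fell. Its counts were 2166 and 1582 in wild-type and 1454 and 1321 in mutant libraries, or 163 and 129 CPM against 111 and 98.0 CPM (-0.48, SE 0.13, adjusted p = 0.0334). Its groups did not overlap, but the wild-type libraries were further apart than the mutant libraries. RPL34 did not pass by DESeq2 (adjusted p = 0.0669) or limma-voom (0.0521), nor without wild-type replicate 1 (0.467, log2 fold change -0.30) or mutant replicate 2 (0.216).

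The core genes that did not pass mostly had values on the same side. Of these 63 genes, 49 had both mutant libraries above both wild-type libraries. Over all 80 genes, 61 had both mutant libraries above, 1 had both below and 18 overlapped, where 21.4% of all genes tested lay above and 21.8% below. At an unadjusted p under 0.05, 55 of the 80 genes were higher, as were 5.64% of all genes, and 1 was lower, as were 7.75%. RPL7A had the largest log2 fold change of all (0.77, SE 0.24, adjusted p = 0.0822) but was counted only 91 and 70 times in wild-type and 136 and 150 times in mutant libraries. Just short of the threshold were RPL18 (0.44, adjusted p = 0.0586), RPS4X (0.43, 0.0609), RPS27A (0.43, 0.0685) and RPL39 (0.44, 0.0728). RPS27A is made as a fusion with ubiquitin, and RPL39 sits in the exit tunnel. RPS6, the substrate of the S6 kinases, was at 115 and 98.2 CPM in wild-type and 154 and 121 CPM in mutant libraries (0.37, adjusted p = 0.160). RPSA, which also serves as a laminin receptor, was at 0.39 (adjusted p = 0.0774).

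Among the other genes of high CPM, RPL13 was at 0.24 (adjusted p = 0.370), RPL23A at 0.24 (0.440) and RPL3, which contributes to the peptidyl transferase centre, at 0.21 (0.476). The smallest positive values of core genes were those of RPL10A (0.11, adjusted p = 0.756) and RPL30 (0.11, adjusted p = 0.770). RPS19BP1, the binding protein set aside above, was at 0.12 (adjusted p = 0.805), with mutant replicate 2 the lowest library.

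The log2 fold changes of the core genes had quartiles of 0.24 and 0.41 around a median of 0.32, and 63 of the 74 lay within 0.2 of that median, while the median SE of a single gene was 0.12. Libraries of the same group also differed from each other across nearly all core genes. Wild-type replicate 1 was above wild-type replicate 2 for 69 of 74 genes (median log2 difference 0.19), and mutant replicate 1 above mutant replicate 2 for 73 of 74 (median 0.31). The closest libraries of different groups, mutant replicate 2 and wild-type replicate 1, differed by a median of 0.09, with the mutant library higher for 60 of 74 genes. This gap between groups was thus smaller than either gap within a group. The median difference was 0.26 between mutant replicate 2 and wild-type replicate 2. Mutant replicate 1 differed by a median of 0.41 from wild-type replicate 1 and of 0.58 from wild-type replicate 2. Mutant replicate 1 was the highest library for 71 of the 74 genes, and wild-type replicate 2 was the lowest for 67.

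**Figure D3:**
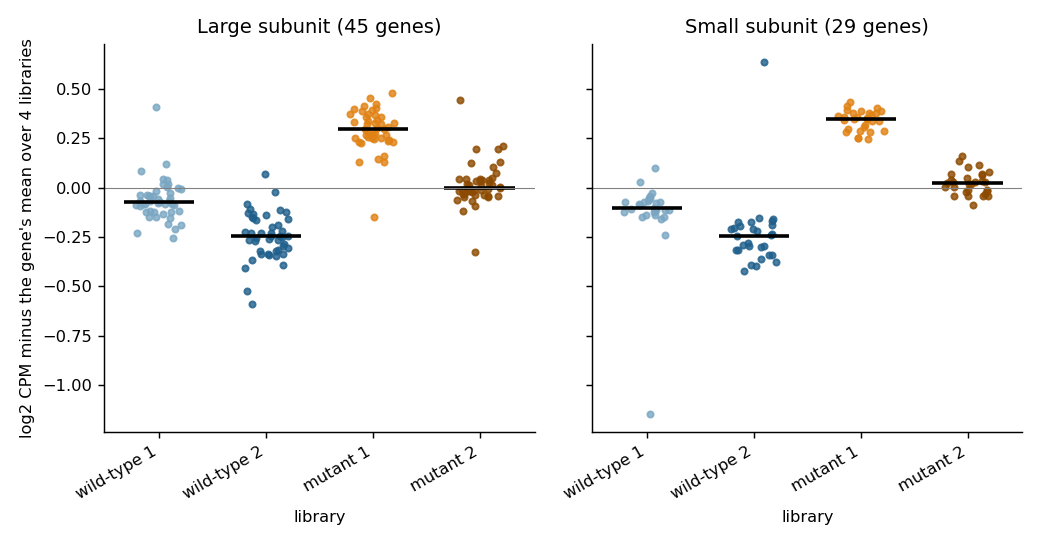
Each core gene's log2 CPM minus its own mean over the 4 libraries, for the large subunit (45 genes) and the small subunit (29 genes), with the median of each library as a bar. In both panels the order from low to high is wild-type 2, wild-type 1, mutant 2, mutant 1, and the outlying points of the small subunit at wild-type 1 and wild-type 2 are both RPS2.

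The count of called genes depended on single libraries. Without wild-type replicate 2, 1 gene rose and it was RPS2, described below (0.965% of all genes rose). None of the 10 risen genes passed in that edgeR fit, where the median log2 fold change of the members was 0.26. Without mutant replicate 1, RPLP0, RPL4 and RPL5 rose (0.560% of all genes) and the median log2 fold change was 0.16. Without wild-type replicate 1, 18 genes rose (0.638% of all genes) and the median was 0.42. Without mutant replicate 2, 35 rose (0.624% of all genes) and the median was 0.46. RPL4 and RPL5 each passed in 3 of these 4 fits, failing without wild-type replicate 2 (adjusted p = 0.0641 and 0.1). RPL32 and RPS3A each passed in 1 fit, the one without mutant replicate 2. DESeq2 called 9 of the 10 risen genes (0.307% of all genes rose), leaving out RPLP0 (adjusted p = 0.388). RPLP0 also did not pass with upper-quartile scaling (0.0567) or without mutant replicate 2 (0.0886), and RPS12 did not by limma-voom (0.0561).

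**Figure D4:**
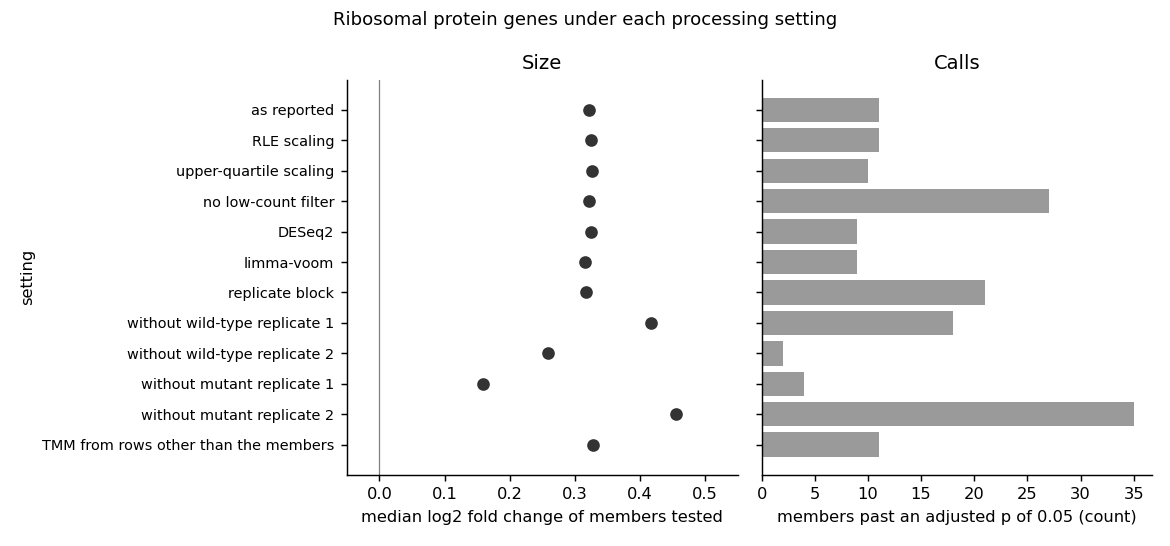
Median log2 fold change of the ribosomal protein genes tested (left) and the number past an adjusted p of 0.05 in either direction (right) under each processing setting. The median stays above 0 under every setting shown, from 0.16 without mutant replicate 1 to 0.46 without mutant replicate 2, and the calls run from 2 to 35.

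Large and small subunit genes had similar medians. In the large subunit 6 of 45 genes rose and 1 fell (median 0.31), and in the small subunit 4 of 29 rose and 0 fell (median 0.37), with 26 of 29 small-subunit genes higher at an unadjusted p under 0.05 and 29 of 45 large-subunit genes. Summed large-subunit counts were 1.56 and 1.42 times the summed small-subunit counts in wild-type and 1.47 and 1.497 times in mutant libraries. The mutant ratios lay between the wild-type ratios (exact permutation test, two-sided p = 1, where 2 libraries against 2 cannot go below 0.333). Without RPS2 the ratio was 1.5996 and 1.58 in wild-type and 1.55 and 1.59 in mutant libraries.

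RPS2, a protein at the mRNA entry channel of the small subunit, was chosen for description after its values were seen. Its count was 2594 in wild-type replicate 1, 8266 in wild-type replicate 2, 7355 in mutant replicate 1 and 6400 in mutant replicate 2. At 196 CPM, wild-type replicate 1 was far below the other libraries, at 673, 562 and 475 CPM, while no other core gene was lowest there by such a margin. Its log2 fold change of 0.26 had an SE of 0.83 (adjusted p = 0.953). Without wild-type replicate 1 the value was -0.38 (adjusted p = 0.233), and without wild-type replicate 2 it was 1.41 (adjusted p = 2.9e-14).

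Genes of the same small assembly did not all pass. In the P stalk, RPLP0 rose, while RPLP1 (262 and 250.2 against 324 and 248 CPM, log2 fold change 0.16, adjusted p = 0.635) and RPLP2 (189 and 165 against 225 and 184 CPM, 0.21, adjusted p = 0.484) had overlapping groups. RPL5 rose, while its partner RPL11 was at 149 and 114 CPM in wild-type and 153 and 136 CPM in mutant libraries (0.14, adjusted p = 0.717). The differences between these partners were not tested. Of 8 genes around the exit tunnel, RPL4 alone rose and 7 did not pass (median 0.33). Among 13 proteins of the small subunit's head, RPS19 and RPS12 rose and 11 did not pass (median 0.37). Of 21 genes mutated in Diamond-Blackfan anaemia, RPL5, RPS27 and RPS19 rose, 18 did not pass and all 21 had positive values (median 0.32). Over all 74 core genes, 10 rose and 73 values were positive (median 0.32), and 0.661% of all genes tested rose. Whether these smaller lists differ from the other core genes was not tested.

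None of the paralogs passed the test by edgeR, DESeq2 or limma-voom, and none was called at an unadjusted p under 0.05 by edgeR. Paralogs arose as copies of ribosomal protein genes, and several are made mainly in 1 kind of tissue. RPL10L, which takes the place of RPL10 in male germ cells, was counted 0, 0, 0 and 2 times, and RPL3L, the form of heart and skeletal muscle, 11, 8, 4 and 9 times. Both were removed by the low-count filter. The 6 tested paralogs had a median log2 fold change of 0.18, with 4 values above 0 and 2 below, beside a median of 0.36 for the parents of all 8 paralogs, of which RPL10 and RPS27 rose.

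RPL26L1, a close copy of RPL26, was nearly the same in all libraries, at 186 and 189.7 CPM in wild-type and 190.4 and 181 CPM in mutant libraries (-0.02, SE 0.11, adjusted p = 0.972). RPL26 itself was at 115 and 100.2 against 144 and 123 CPM (0.31, SE 0.12, adjusted p = 0.238). RPL26L1 had 1.62 and 1.89 times the counts of RPL26 in wild-type and 1.33 and 1.47 times in mutant libraries. RPL22L1, a copy of RPL22 that is active in development, was at 26.6 and 24.8 against 25.3 and 20.1 CPM (-0.18, SE 0.17, adjusted p = 0.705). RPL22 was at 148 and 123 against 179 and 167 CPM (0.35, SE 0.12, adjusted p = 0.137). The ratio of RPL22L1 to RPL22 was 0.179 and 0.202 in wild-type and 0.141 and 0.120 in mutant libraries, the furthest apart of the 6 pairs on the log2 scale (-0.55).

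The other pairs differed less. RPS27L was at 0.34 (adjusted p = 0.512) and RPL39L, found mainly in testis, at 0.24 (0.677). RPL36AL was at 0.22 (0.599), with its parent RPL36A at 0.31 (0.337), and RPL7L1, which takes part in ribosome assembly, at 0.13 (0.728), with RPL7 at 0.36 (0.129). For 5 pairs the paralog-to-parent ratio of each mutant library was below that of either wild-type library, while the groups overlapped for RPL36AL to RPL36A. With 2 libraries against 2, each of the 5 had an exact two-sided permutation p of 0.333, the smallest the design allows, and 0.466 adjusted over the 7 ratios computed, the subunit ratio included. No ratio was thus shown to differ between the groups.

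**Figure D5:**
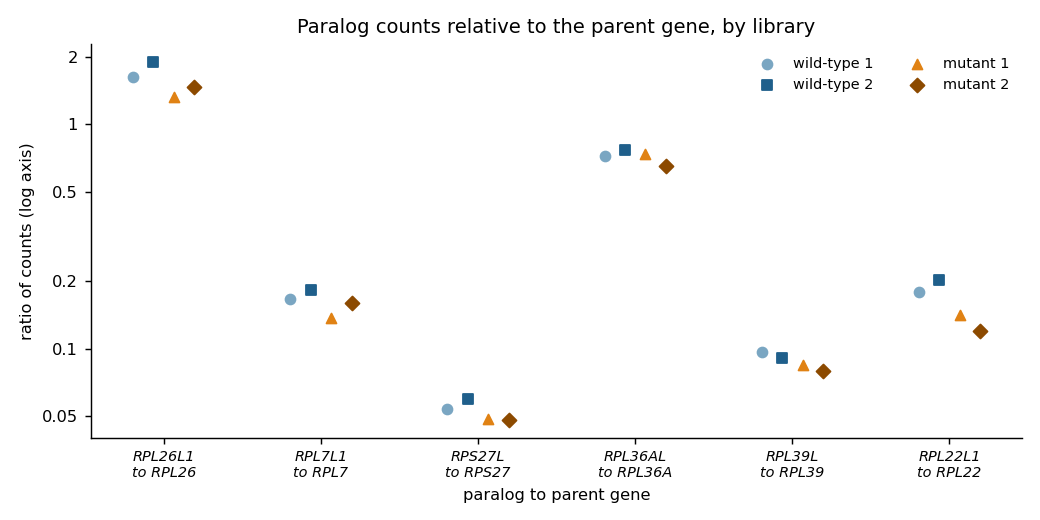
Counts of each paralog divided by those of its parent gene (log axis), with 1 point per library, for the 6 pairs with enough counts. Mutant points lie below wild-type points for 5 pairs and overlap them for RPL36AL to RPL36A.

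Ribosomal proteins that the symbol rule does not reach had values like those of the core genes. FAU, which encodes a small-subunit protein fused to a ubiquitin-like protein, was at 0.39 (adjusted p = 0.0892). RACK1, the signalling scaffold on the small subunit, was at 0.31 (adjusted p = 0.199). Neither passed by edgeR, and both were higher at an unadjusted p under 0.05, with both mutant libraries above both wild-type libraries.

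Other mRNAs that carry a TOP tract had positive values as well. Of 18 such genes, 4 rose, 0 fell and 14 did not pass, all 18 values were positive and the median was 0.27. EEF1A1, which brings aminoacyl-tRNA to the ribosome, averaged 2316 ± 301.1 CPM against 3339 ± 269 CPM in the mutant group (SD, n = 2 each, log2 fold change 0.53, SE 0.11, adjusted p = 0.00567). EEF1G, a subunit of its exchange factor, was at 0.46 (adjusted p = 0.0266) and PABPC1, the poly(A)-binding protein, at 0.42 (0.0359). The fourth was VIM, an intermediate filament of immature glia (0.44, adjusted p = 0.0481).

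Genes of ribosome assembly had values on both sides. Of 54 ribosome biogenesis genes, 1 rose and 0 fell, with 35 positive and 19 negative values and a median of 0.04. The risen gene was REXO4, a nucleolar exonuclease, at 4.28 ± 0.286 against 8.66 ± 0.174 CPM (SD, n = 2 each, log2 fold change 1.02, adjusted p = 0.0311). RRP1B was next, at 0.40 (adjusted p = 0.244). None of 14 genes of RNA polymerase I, which makes the large ribosomal RNAs, passed by edgeR (2 higher at an unadjusted p under 0.05, median 0.11), with POLR1D at 0.55 (adjusted p = 0.106) and POLR1E at 0.46 (0.118). Among 15 regulators of TOP mRNAs and growth, PABPC1 alone rose (median 0.03), with MYC at 0.48 (adjusted p = 0.129) and LARP1 at -0.23 (0.394). Among 16 mitochondrial ribosome and respiratory chain genes, 0 passed by edgeR and 0 were at an unadjusted p under 0.05 (median 0.02). These lists were not tested against the ribosomal protein genes.

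Markers of several cell types moved between the groups as well. Of 11 markers of newborn neurons 2 rose and 0 fell (6 higher and 1 lower at an unadjusted p under 0.05 by edgeR). The lower marker was IGFBPL1 (log2 fold change -0.37, adjusted p = 0.339). The summed level of the 11 markers was 8396 to 9737 CPM in wild-type and 11110.0 to 11271 CPM in mutant libraries. Of 13 markers of mature oligodendrocytes 12 fell and 0 rose, with summed levels of 3599 to 3675 against 1348 to 1401 CPM. Of 10 markers of mature neurons 4 fell and 0 rose, with 6979 to 7615 against 6222 to 6427 CPM. Of 6 choroid plexus markers 0 passed by edgeR (1 lower at an unadjusted p under 0.05), with 25.9 to 29.3 CPM in the wild-type group and 123 and 22.8 CPM in mutant replicates 1 and 2. TTR, the thyroid hormone carrier of the choroid plexus, gave 95.0 of the 123 CPM. Without it the summed level of the other 5 markers was 22.1 to 25.3 CPM in the wild-type group and 28.4 and 16.3 CPM in mutant replicates 1 and 2. Of 7 red cell markers 3 could be tested and 0 passed by edgeR (0 at an unadjusted p under 0.05). Their summed levels were 3.26 to 4.75 against 4.90 to 7.25 CPM. Of the 3 tested, 2 had positive values and 1 a negative value. The positive ones were ALAS2 (log2 fold change 0.95, SE 0.51, adjusted p = 0.435) and EPB42 (0.80, SE 0.50, adjusted p = 0.52). HBZ and SLC4A1 had at most 2 counts in any library and were not tested. Of 9 microglial markers 2 fell and 0 rose, with summed levels of 102 to 104 CPM in the wild-type and 57.1 to 86.1 CPM in the mutant libraries. The genes that fell were CSF1R, the colony-stimulating factor receptor of microglia (log2 fold change -0.84, adjusted p = 0.00841), and CX3CR1, their fractalkine receptor (-0.71, adjusted p = 0.019). Of 10 forebrain markers 1 rose and 0 fell (6 higher and 1 lower at an unadjusted p under 0.05 by edgeR). Their summed levels were 1816 to 1838 against 2138 to 2257 CPM, and the gene that rose was NEUROD6 (0.41, adjusted p = 0.0469). Of 7 vascular markers 0 passed by edgeR (1 lower at an unadjusted p under 0.05), with 279 to 292 against 254 to 271 CPM. Of 10 thalamic and hindbrain markers 4 could be tested and 0 passed by edgeR (1 lower at an unadjusted p under 0.05), with 73.5 to 198 against 66.9 to 68.6 CPM. The part of these cell types in the ribosomal protein result was not tested.

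Ribosomal protein genes have many processed copies in the genome, and the treatment of reads shared with such copies is not given in the labels or notes. The values of all the ribosomal protein genes, those past the threshold included, are therefore uncertain. Whether shared reads account for the values of RPL7A, RPS2 or the paralog pairs was not tested. By the RefSeq gene table (assembly calJac240_pri, used for names and neighbours only), 12 of the 81 rows it matched overlap a named protein-coding gene, RPL4 (with ZWILCH) and RPL5 (with DIPK1A) among them. No row of the counts carried the symbols RPL41, RPS15 or RPS15A, so these ribosomal protein genes could not be analysed here.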

How the data were processed

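RNA was selected for poly(A) and made into directional libraries, per the labels' protocols. Trimmomatic 0.38 and STAR 2.7.10a were used, per the submitters' processing notes. In the sources used here, the build, annotation, counter and strand option are not given. Whole-number counts per gene, without normalization, were deposited by the authors for 35205 rows in 4 libraries. Columns were matched to samples by the names in the labels.

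The whole table was fitted with edgeR 4.0.16 in R 4.3.3: filterByExpr at a minimum count of 10 (16956 genes), TMM scaling, and the quasi-likelihood test (robust = TRUE) with Benjamini-Hochberg adjustment at 0.05. Residual degrees of freedom were 2, prior degrees of freedom 31.6 (median), and the biological coefficient of variation 11.3%. The SE is the log2 fold change divided by the square root of F. Every adjusted p printed without another tool is from this edgeR test. The fit was tested on simulated counts drawn independently for each gene. Such counts lack the differences between replicates that nearly all core genes shared, so the simulation does not cover those differences. Each library counted once. Replicates differed by more than sampling noise (chi-square per degree of freedom 7.79 and 7.42 in wild-type and mutant). This does not show that they came from separate animals.

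The members, the gene lists and the rule for named genes were chosen with earlier results of these data known. Named were members past the threshold, paralogs and their parents, a few members fixed by role (P stalk, RPL5, RPL11, RPS6, RPL10, RPSA, RPS4X, RPS27A), and the 5 of highest CPM and of largest and smallest change. RPL18, RPS2, RPS19BP1 and RPS21 were named after their values were seen. From other lists, up to 4 passing genes, or the 2 of smallest p, were named. A few other genes of these lists, HBZ and SLC4A1 among them, were named outside that rule. Alternatives were RLE and upper-quartile scaling, no filter, DESeq2 1.42.0 on all rows, limma-voom (limma 3.58.1), a replicate block, each library left out, and, chosen after seeing the data, TMM factors from rows other than the members. No sequences are shown, and a few genes of the lists are not reported here by name.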

Additional observations from a re-analysis of the deposited data

How the results depend on the processing

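Under every alternative run the median log2 fold change of the ribosomal protein genes stayed positive, and the scalings, tools and filter moved it only between 0.32 and 0.33. Members past the threshold, 11 as reported, numbered 27 without a low-count filter and between 2 and 35 with 1 library left out. Without that filter 26 of the 27 rose, as did 0.743% of all genes. With 1 library left out, between 1 and 9 of the 11 reported genes still passed, the median ran from 0.16 to 0.46, the large minus small subunit median from -0.086 to -0.0017 (-0.059 as reported), and the difference in share of counts from 0.272 to 0.721 percentage points. Calls among the other translation and biogenesis genes, 5 as reported, were 8 without a filter, 3 by DESeq2 and between 2 and 7 with 1 library left out. A group left with 1 library was assumed to vary like the other group. With the replicate number as a block, 21 members were called, 20 of them higher (0.902% of all genes were). The labels do not say what a number stands for. Differences of replicate 1 from replicate 2 in wild-type and in mutant correlated at 0.02 across genes. A correlation leaves out any shift that the genes share. Replicate 1 was above replicate 2 for 69 of 74 core genes in wild-type and for 73 in mutant. The correlation thus cannot show whether same-numbered libraries share an effect on these genes. The log2 fold changes of 8 members, none of them past the test as reported, changed sign with 1 library left out. They ran from -0.38 to 1.41 for RPS2, from -0.057 to 0.021 for RPL26L1, from -0.039 to 0.34 for RPL11, from -0.044 to 0.34 for RPLP1, from -0.032 to 0.44 for RPL36AL, from -0.0029 to 0.46 for RPL39L and from -0.078 to 0.302 for RPS19BP1, and RPS21, 0.17 as reported, was at -0.0076 without mutant replicate 1. The cause was not tested. Counting LOC rows that encode ribosomal proteins was not run, since the tables used give no descriptions. RPL7A, RPL10L and RPL3L had the fewest counts, which limits what can be said of them. Why RPL7A was counted so little was not tested.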
